A study of Mus musculus with 20 samples.

Results

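The cell division genes described here are 41 genes of the mouse cell cycle, chosen by symbol from the 24062 genes in the table of depth-normalized counts, and all 41 were present and tested in every comparison. They fall into 4 roles. G1 cyclins (5 members) start the cycle, CDK inhibitors (2 members) restrain it, DNA replication genes (13 members) copy the genome in S phase, and genes of G2 and mitosis (21 members) divide it. RNA was measured by sequencing of microglia, the resident macrophages of the brain, isolated with magnetic beads from the whole brain of a single male mouse per sample. The methods name CD11b as the bead target and the sample labels name IBA1. The mThy1-α-synuclein mice overexpressed human α-synuclein under the murine Thy-1 promoter, which is active in neurons, from a transgene on the X chromosome, on the B6D2F1/J background. Their controls were wild-type littermates without the transgene. At 7 months of age there were 6 transgenic and 4 control mice, and at 10 months there were 5 of each, and mice of an age were processed together, so that age and processing cannot be told apart.

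Between 33404096 and 77806399 reads per mouse were counted on genes. The values below, called normalised reads, are counts divided by a size factor set within each age. Thy1, which the promoter of the transgene comes from, lay between 392 and 1741 normalised reads in the transgenic mice and between 9.41 and 47.6 in the wild-type mice, with no overlap. The summed level of 15 microglial markers was between 2168056 and 2765141 normalised reads in every mouse, while 10 neutrophil markers summed to between 43448 and 444819, so that RNA of neutrophil genes was present in all mice. In such bulk samples fewer dividing cells and less RNA per dividing cell cannot be told apart.

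Passage through the cell cycle rests on waves of transcription. D-type and E-type cyclins with their kinases release E2F factors in G1, E2F factors switch on the MCM helicase and the nucleotide-making enzymes of S phase, and a later wave, read from promoters with CHR and CCAAT elements, supplies the kinases, motors and centromere proteins of mitosis. Adult microglia divide rarely and renew themselves slowly, and neutrophil precursors of the bone marrow divide often.

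Promoter sequence was examined because the mitotic members moved together from mouse to mouse. RefSeq held 37 promoters for 33 of the 41 members on GRCm38.p6, from 250 bases before to 50 after the transcription start. Of the promoters shown, 3 belong to mitotic members that moved together (Mki67, Top2a and Ccnb2), and the others to the 2 members that were higher in mThy1-α-synuclein mice (Hjurp and Mcm3). They are printed to 30 bases after the start, 5′ to 3′ on the minus strand of the genome, at chr7:135716350-135716629, chr11:99024160-99024439, chr9:70421525-70421804, chr1:88277550-88277829 and chr1:20820283-20820562. Capitals mark the CHR (TTTGAA), the CCAAT box (CCAAT) and the E2F site (GGCGGGAA), each searched on both strands.
Mki67: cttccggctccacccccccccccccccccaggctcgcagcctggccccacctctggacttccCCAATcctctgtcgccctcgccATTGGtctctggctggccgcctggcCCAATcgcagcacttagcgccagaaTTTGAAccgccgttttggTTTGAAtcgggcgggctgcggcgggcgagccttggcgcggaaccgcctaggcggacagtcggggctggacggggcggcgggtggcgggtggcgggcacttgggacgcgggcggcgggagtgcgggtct
Top2a: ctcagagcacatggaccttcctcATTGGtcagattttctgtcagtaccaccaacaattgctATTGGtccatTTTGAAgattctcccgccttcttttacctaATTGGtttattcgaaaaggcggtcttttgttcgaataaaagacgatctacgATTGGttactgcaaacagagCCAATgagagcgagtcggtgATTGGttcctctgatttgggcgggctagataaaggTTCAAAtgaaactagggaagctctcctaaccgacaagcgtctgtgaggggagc
Ccnb2: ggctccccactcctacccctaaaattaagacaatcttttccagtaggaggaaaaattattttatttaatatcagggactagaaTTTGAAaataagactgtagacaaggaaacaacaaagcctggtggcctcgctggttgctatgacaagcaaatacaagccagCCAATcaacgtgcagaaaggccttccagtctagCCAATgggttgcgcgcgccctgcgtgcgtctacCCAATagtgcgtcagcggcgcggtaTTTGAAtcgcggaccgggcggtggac
Hjurp: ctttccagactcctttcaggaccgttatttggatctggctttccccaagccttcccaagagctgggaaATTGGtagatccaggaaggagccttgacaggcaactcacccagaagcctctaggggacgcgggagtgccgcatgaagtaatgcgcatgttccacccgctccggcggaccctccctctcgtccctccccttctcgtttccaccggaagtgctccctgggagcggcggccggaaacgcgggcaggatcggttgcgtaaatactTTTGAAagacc
Mcm3: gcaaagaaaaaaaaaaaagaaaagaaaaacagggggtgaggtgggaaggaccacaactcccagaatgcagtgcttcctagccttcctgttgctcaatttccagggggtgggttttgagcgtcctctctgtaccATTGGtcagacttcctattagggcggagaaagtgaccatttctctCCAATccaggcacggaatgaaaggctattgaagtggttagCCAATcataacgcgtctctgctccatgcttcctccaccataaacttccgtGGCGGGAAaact

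The CHR was in 14 of 18 promoters of mitotic members (77.8%), in 1 of 13 of DNA replication members (7.69%) and in 17.9% of all 32851 promoters. The CCAAT box was in 17 of 18 mitotic promoters (94.4%), in 9 of 13 replication promoters (69.2%) and in 37.4% of all promoters. The E2F site as spelled here was in 2 of 13 replication promoters (15.4%), Mcm3 and Rrm1, in 0 of 18 mitotic promoters and in 2.19% of all promoters. None of the 3 promoters of G1 cyclins, nor of the 3 of CDK inhibitors, held the CHR. The Hjurp promoter carried both the CHR and the CCAAT box, like Mki67, Top2a and Ccnb2, while that of Mcm3 carried the CCAAT box and the E2F site. A match describes letters in this window and was not tested for binding.

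Transcripts of all 4 roles were found in every mouse, but at very different levels. Per kilobase of exon, averaged over the 20 mice, Ccnd1, the D-type cyclin that drives entry into S phase, was the most abundant member (2912 normalised reads per kb), followed by Pcna, the sliding clamp of DNA polymerase (2470), and Cdkn1b, which encodes the CDK inhibitor p27 (796). Mki67, the proliferation marker that coats mitotic chromosomes, stood at 294 and Top2a, the topoisomerase that untangles them, at 258. Hjurp, the chaperone that deposits the centromeric histone, was the least abundant (11.9), after Ccne1 (16.5) and Cdc6 (16.1). Part of the Pcna, Ccnd3, Ccnb1, Ccnb2 and Tyms reads may come from named pseudogenes, and Ccnd1, Ccnd3, Ccne2, Cdt1, Ccna2, Cdc20, Mcm7, Prc1 and Kif20a overlap other coding genes, since the sources used here do not give how shared reads were counted.

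The roles also differed in how far the mice of a group lay apart. From the lowest to the highest of the 20 mice, mitotic members ranged over 2.62-fold (Cdk1) to 7.00-fold (Ccnb2), with a median of 4.27-fold over the 21 members. The ages were scaled separately, which enters these ranges. The median was 2.23-fold for DNA replication and 2.27-fold for G1 cyclins, with Cdkn1b and Pcna at 1.47-fold and Rrm2 and Cdc6 at 4.72-fold and 5.40-fold. The SD within groups on the log2(value + 1) scale was 0.41 to 0.68 for every mitotic member, against 0.11 for Pcna, 0.12 for Cdkn1b and 0.68 for both Rrm2 and Cdc6 outside that role.

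Mki67 in the 6 mThy1-α-synuclein mice at 7 months had 1286 normalised reads in the lowest mouse, a median of 2756 and 5497 in the highest. The 4 wild-type mice of that age had 3564, 4735, 2244 and 2757. At 10 months the mThy1-α-synuclein mice had 3668, 1446, 2313, 1685 and 2973, and the wild-type mice 2099, 3782, 4393, 2302 and 2264. The groups overlapped at both ages, and the lowest and the highest of all 20 mice were in the same group.

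In the mThy1-α-synuclein mice at 7 months Top2a had a lowest value of 810 normalised reads, a median of 2079 and a highest value of 3661, with its lowest and highest in the same mice as those of Mki67. The wild-type mice of that age had 3084, 3383, 2106 and 2023. At 10 months the values were 2800, 1253, 1829, 1386 and 2249 in mThy1-α-synuclein and 1762, 3370, 3859, 2152 and 1882 in wild-type mice. For Cdk1, the kinase that drives entry into mitosis, mThy1-α-synuclein mice at 7 months lay between 226 and 514 with a median of 394, and wild-type mice had 568, 469, 451 and 333. At 10 months mThy1-α-synuclein mice had 417, 267, 355, 405 and 402 and wild-type mice 254, 404, 592, 277 and 388. As with Mki67, the genotypes overlapped at both ages.

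**Figure D1:**
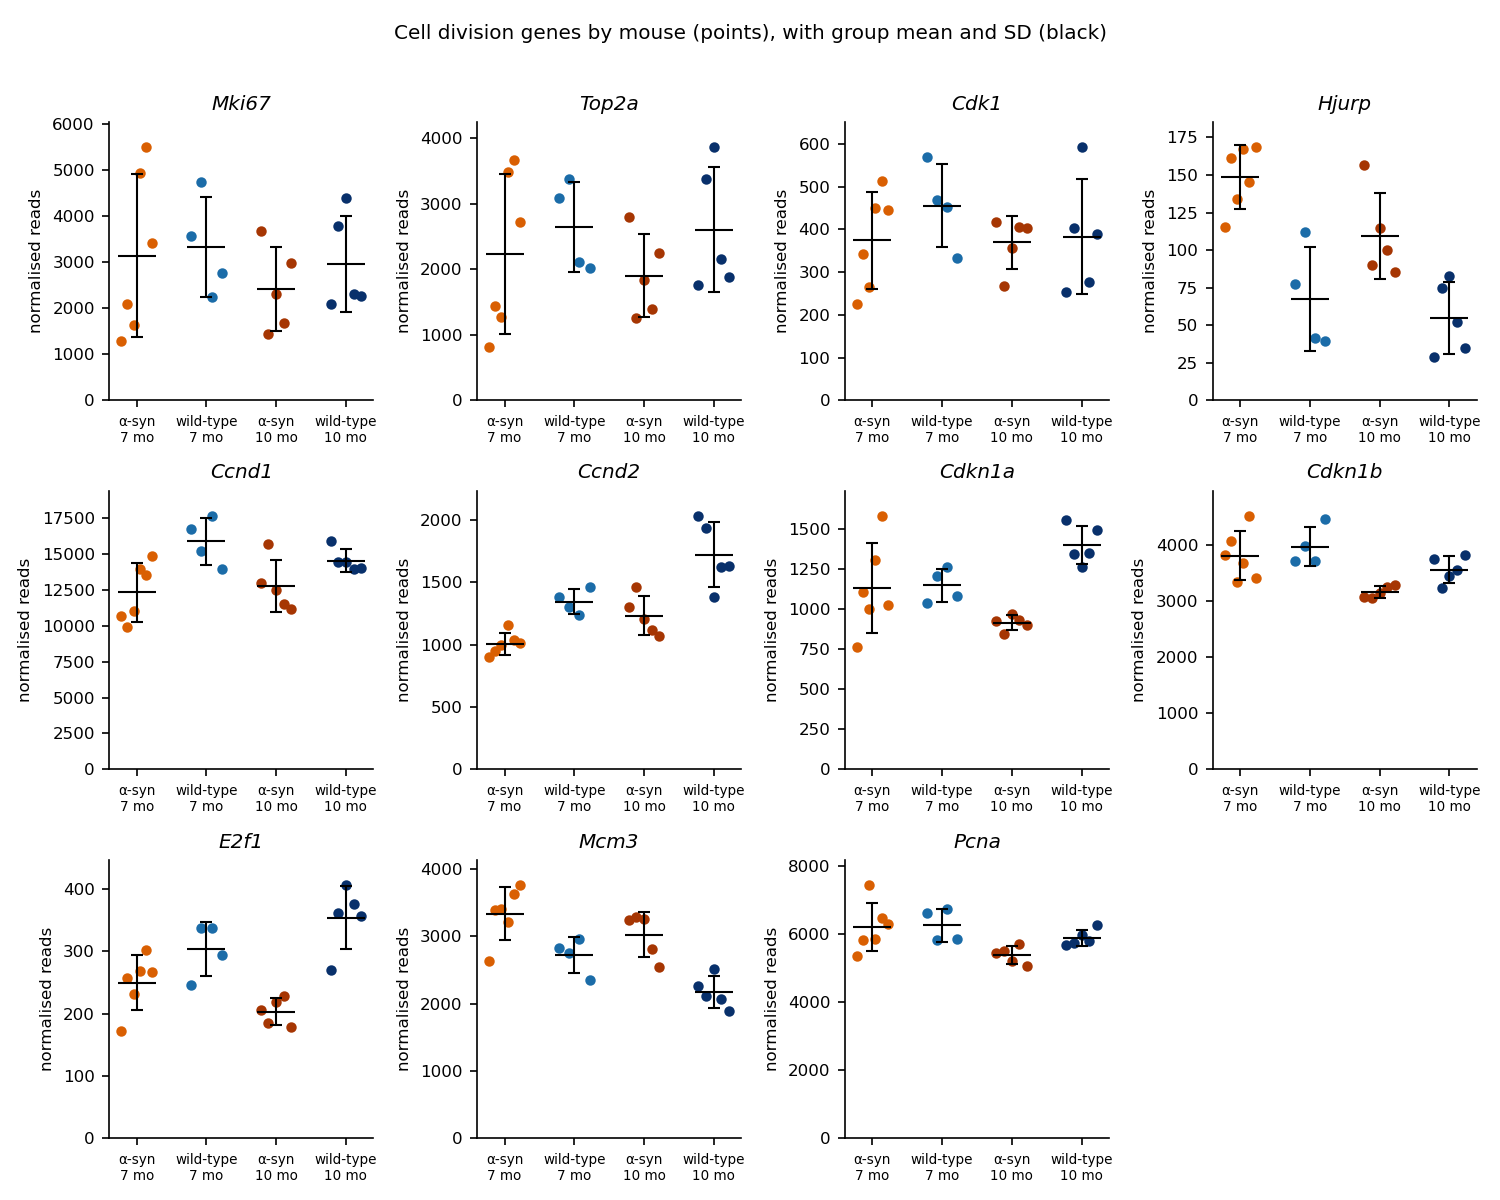
Normalised reads (y axis, from 0) of 11 members in each mouse (points) of the 4 groups (x axis), with the group mean and SD in black. Mki67 and Top2a spread widely within every group, Hjurp lies higher in mThy1-α-synuclein mice at both ages, and Cdkn1a and E2f1 do not overlap between the genotypes at 10 months.

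These swings were shared. After each group's mean was removed, the median Pearson correlation over the 210 pairs of mitotic members was 0.858 across the 20 mice, no pair was below 0.390, and 98.1% of the pairs were above 0.5. Over all pairs of tested genes the median was -0.002 and 4.54% of pairs were above 0.5. A single component held 84.3% of the variance of the 21 mitotic members. The median was 0.891 within the 10 mice of 7 months and 0.824 within those of 10 months. The correlations share the same mice and libraries, and members are not independent replicates.

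The mitotic mean deviation, averaged over the 21 members on the log2(value + 1) scale, ran from -0.86 in mThy1-α-synuclein mouse 1 to 0.84 in mouse 5 of the same group at 7 months. In 5 of the 20 mice (mThy1-α-synuclein mice 1 and 3 and wild-type mouse 4 at 7 months, mThy1-α-synuclein mouse 2 and wild-type mouse 1 at 10 months) 0 of 21 members were above their group mean. In 6 mice (mThy1-α-synuclein mice 4 and 6 and wild-type mouse 1 at 7 months, mThy1-α-synuclein mouse 1 and wild-type mice 2 and 3 at 10 months) all 21 were above it. Mice of both kinds were found in both genotypes and at both ages.

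**Figure D2:**
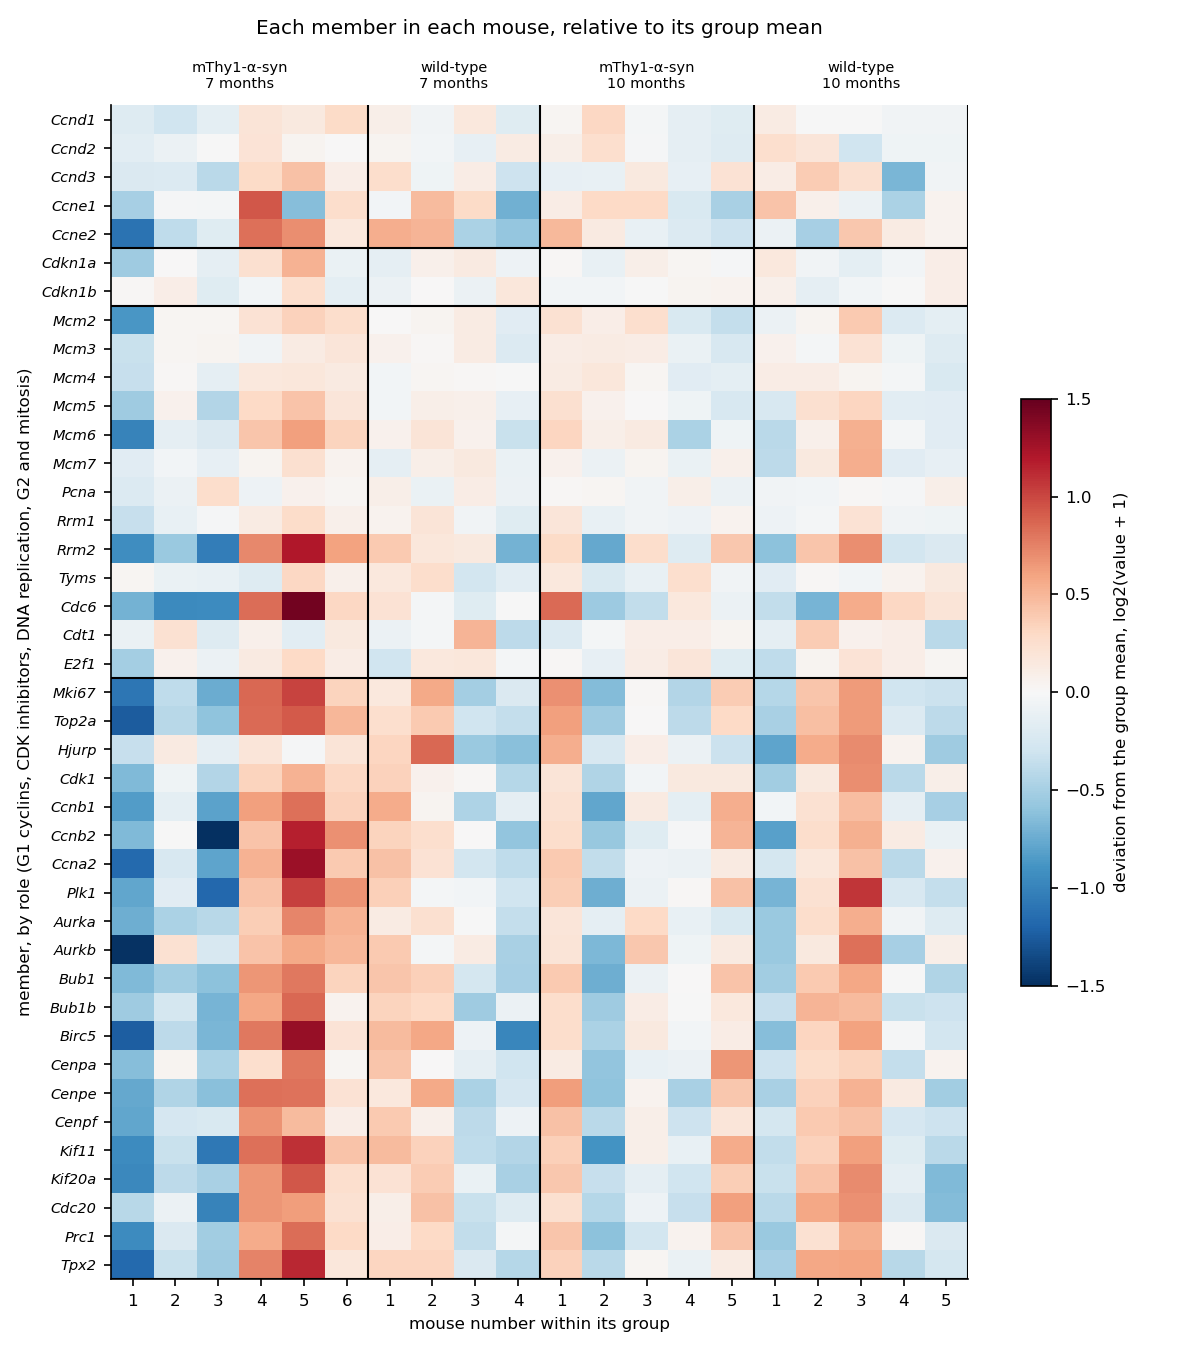
Deviation of each member (rows, by role) in each mouse (columns, numbered within the 4 groups) from the mean of its group on the log2(value + 1) scale, with colours that end at -1.5 and 1.5. The 21 mitotic members at the bottom take the same colour in most mice, whereas Pcna and Cdkn1b stay near 0.

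Of the mitotic members, 20 of 21 correlated above 0.8 with the mitotic mean, which was taken without the member itself. Kif11 (0.977), the motor that separates the spindle poles, and Top2a (0.974) were closest to it. Hjurp was lowest at 0.621. DNA replication members formed no such block, with a median pairwise correlation of 0.430. Rrm2, the regulated subunit of ribonucleotide reductase, followed the mitotic mean at 0.956, Rrm1, the large subunit, at 0.870, and the helicase subunits Mcm6 and Mcm5 at 0.836 and 0.819. Pcna (-0.01), Cdt1 (0.185), which licenses replication origins, and Mcm3 (0.401) were far from it.

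The G1 cyclins (median pairwise correlation 0.396) and the pair of CDK inhibitors (0.432) were less coherent than the mitotic members. Across lists, the median correlation of G1 cyclins with mitotic members was 0.661 within 7 months and -0.234 within 10 months. For CDK inhibitors it was 0.404 and -0.422. These values rest on 10 mice an age, and the difference between the ages was not tested.

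**Figure D3:**
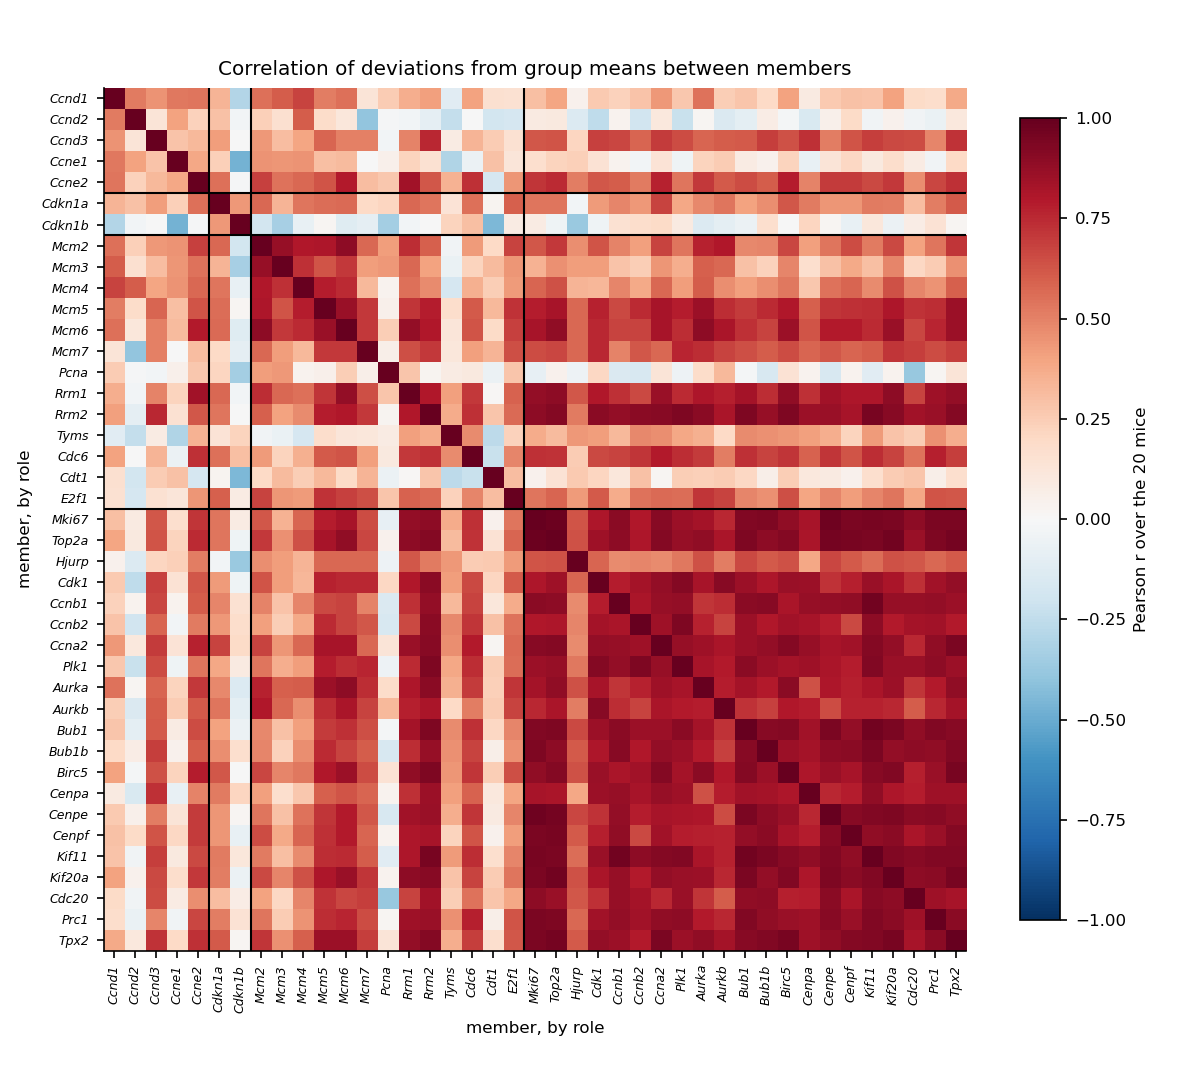
Pearson correlation (colour, from -1 to 1) between the deviations from group means of every pair of the 41 members over 20 mice, ordered by role on both axes. The mitotic block at the lower right is high apart from Hjurp, and Rrm1, Rrm2, Mcm5 and Mcm6 join it.

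The correlation of Mki67 with 7 genes, 1 or more per role and a microglial gene, was tested by permuting mice within their groups. With Top2a it was 0.982 (Spearman 0.953, permutation p = 1e-05, the smallest that 100000 permutations give, adjusted p = 7e-05), with 0.978 at 7 and 0.991 at 10 months. With Mcm5, a subunit of the replicative helicase, it was 0.788 (Spearman 0.734, permutation p = 0.00105, adjusted p = 0.00367), with 0.875 at 7 months and 0.609 at 10 months, where it did not pass (adjusted permutation p = 0.296). With Ccnd3, a D-type cyclin, it was 0.621 (Spearman 0.624, permutation p = 0.00881, adjusted p = 0.0206), with 0.754 at 7 months and 0.467 at 10 months. At neither age alone did the relation with Ccnd3 pass (adjusted permutation p = 0.0616 and 0.331). Without the 2 mice farthest from the median of Mki67 (mThy1-α-synuclein mice 1 and 5 at 7 months) the correlation was 0.978 for Top2a, 0.672 for Mcm5 and 0.545 for Ccnd3, and the last no longer passed (permutation p = 0.0296, adjusted p = 0.0691).

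The relations of Mki67 with the other 4 genes did not pass. The correlation was 0.536 with Cdkn1a (Spearman 0.286, permutation p = 0.0786, adjusted p = 0.138), 0.299 with Ccnd1 (Spearman 0.293, permutation p = 0.31, adjusted p = 0.362), 0.0817 with Cdkn1b (Spearman 0.0571, permutation p = 0.794, adjusted p = 0.794) and -0.322 with Aif1, which encodes IBA1 (Spearman -0.418, permutation p = 0.137, adjusted p = 0.192). Within the ages the correlation with Cdkn1a was 0.769 at 7 months and -0.305 at 10 months, and neither passed (adjusted permutation p = 0.0609 and 0.397). Without the same 2 mice it was 0.112 for Cdkn1a, 0.14 for Ccnd1, -0.166 for Cdkn1b and -0.333 for Aif1.

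Markers of other cell types moved with the mitotic members. The summed level of 10 genes of neutrophils and their precursors correlated with Mki67 at 0.804 (Spearman 0.761, permutation p = 0.00095, adjusted p = 0.00475 over 10 marker lists), at 0.824 within 7 and 0.788 within 10 months, and at 0.749 without the 2 mice farthest from the median of Mki67. Elane and Prtn3, granule enzymes made by precursors, correlated at 0.814 and 0.736, and S100a8, abundant in mature neutrophils, at 0.795. Their summed level was 43448 to 444819 normalised reads in mThy1-α-synuclein and 75261 to 286111 in wild-type mice at 7 months, and 71969 to 195497 and 155059 to 393051 at 10 months. None of the 10 genes was at 0 in all mice.

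Border macrophage and monocyte genes correlated with Mki67 at 0.683 (8 genes, Spearman 0.696, permutation p = 0.00607, adjusted p = 0.0152), with the monocyte genes Ly6c2 at 0.811 and Ccr2 at 0.605 and the border macrophage genes Mrc1 at -0.452 and Cd163 at -0.358. The list of neuroblasts and neural progenitors correlated at 0.815 (Spearman 0.786, permutation p = 0.00072, adjusted p = 0.00475), but 6 of its 10 genes averaged under 10 normalised reads and Cd24a made up most of its sum. The 15 microglial markers correlated at -0.679 (Spearman -0.671, permutation p = 0.00355, adjusted p = 0.0118). The other 6 lists did not pass, with correlations between -0.339 for astrocytes and 0.566 for lymphocytes (adjusted permutation p = 0.0604). Of 6 erythroid genes 4 were at 0 in all mice. When the mean neutrophil marker level was removed by regression, the median pairwise correlation of the mitotic members went from 0.858 to 0.588. Whether these cells contributed the mitotic transcripts was not tested.

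**Figure D4:**
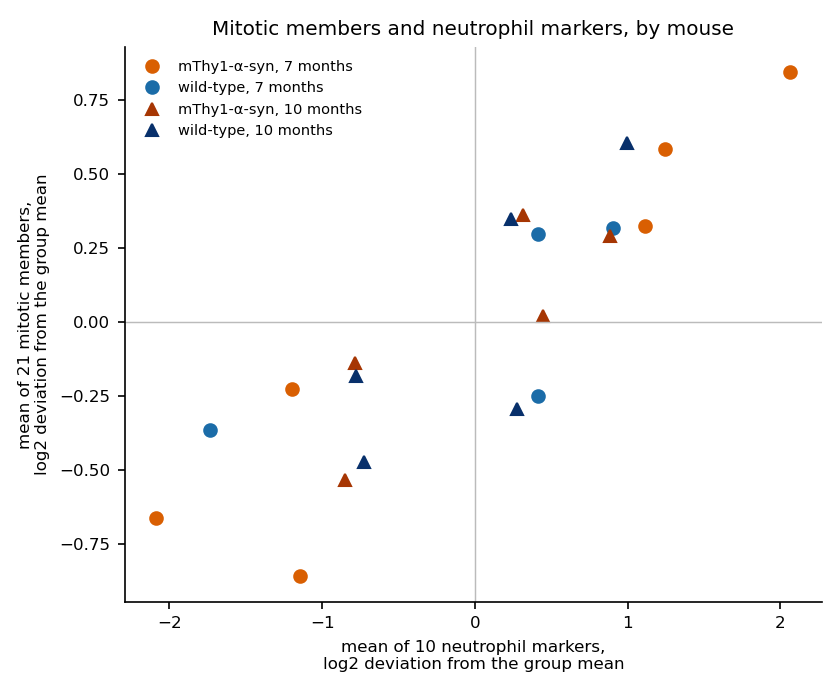
Mean deviation of the 21 mitotic members (y axis) against that of the 10 neutrophil markers (x axis), both on the log2(value + 1) scale relative to the group mean, for the 20 mice of the 4 groups. The points rise from lower left to upper right at both ages, with 2 wild-type mice right of 0 but below 0 on the mitotic axis and with the mThy1-α-synuclein mice of 7 months at both ends.

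At 7 months, the question was whether cell division genes differed between the genotypes. limma called 2 of 41 members at an adjusted p under 0.05, when 4.93% of the 13887 genes tested were called. Ccnd2, a D-type cyclin, was lower (2.70% of all genes were called lower) and Hjurp was higher (2.23% called higher). A further 8 members had an unadjusted p under 0.05 without passing, 10 in all (24.4%, against 21.3% of all genes tested). The log2 difference was negative in 38 of 41 members, with a median of -0.31 against 0.0009 over all genes tested, of which 49.8% were negative. The median was -0.17, with 32 negative, without mThy1-α-synuclein mouse 1, -0.19 without mouse 3 of that group and -0.20 with edgeR. Because the mitotic members move together, these 38 signs are not 38 separate observations.

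At 10 months limma called 5 of 41 members, when 7.67% of the 13627 genes tested were called. Ccnd2, Cdkn1a and E2f1 were lower (3.79% called lower) and Hjurp and Mcm3 were higher (3.88% called higher). There were 18 members with an unadjusted p under 0.05 (43.9%, against 23.5% of all genes tested), 16 of them negative. Again 38 of 41 members had a negative difference, with a median of -0.33 against -0.0026 over all genes, of which 50.5% were negative. The median was -0.20, with 36 negative, without wild-type mouse 3. With the neutrophil marker level as a covariate, an alternative added after the data were seen, the median of members at 10 months turned to 0.05, 18 of 41 were negative and 2 were called (Ccnd2 and Cdkn1a). Calls over all 13627 genes fell from 1045 to 197 in that fit. The 10 neutrophil markers themselves had a median difference of -1.17 at 10 months, so that covariate and genotype cannot be fully separated there. At 7 months the median with the covariate was -0.21, 35 were negative and 6 were called. Over all 13887 genes 900 were called with it, against 684 without it.

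In limma's fit the sign was the same at both ages for all 41 members. These are separate mice, and of the 13484 genes tested at both ages 51.4% had the same sign. Because the mitotic members move together, the 41 signs are not 41 separate observations. The 38 members that were negative at 7 months were negative at 10 months, and the 3 positive ones, Hjurp, Mcm3 and Cenpf, were the same. Some members had no clear direction, such as Bub1b at 7 months and Cdk1 at 10 months, both at -0.003. With edgeR 36 and with DESeq2 37 members were negative at 7 months (38 with either at 10 months), and Bub1b turned positive with both and Ccne1 (0.002) with edgeR. With the neutrophil covariate 35 members were negative at 7 months and 18 at 10 months, so the signs were not shared by all members in that fit. Hjurp, Mcm3 and Cenpf lie on chromosome 1 of mm10, at 88262471 to 88277633 (Hjurp), 20802968 to 20820312 (Mcm3) and 189640606 to 189688086 (Cenpf), where Mcm6, with negative differences, also lies. Within 1 Mb of Hjurp 0 of 16 other tested genes were called at 7 months and 3 of 14 at 10 months. Around Mcm3 0 of 5 and 0 of 4 were called.

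**Figure D5:**
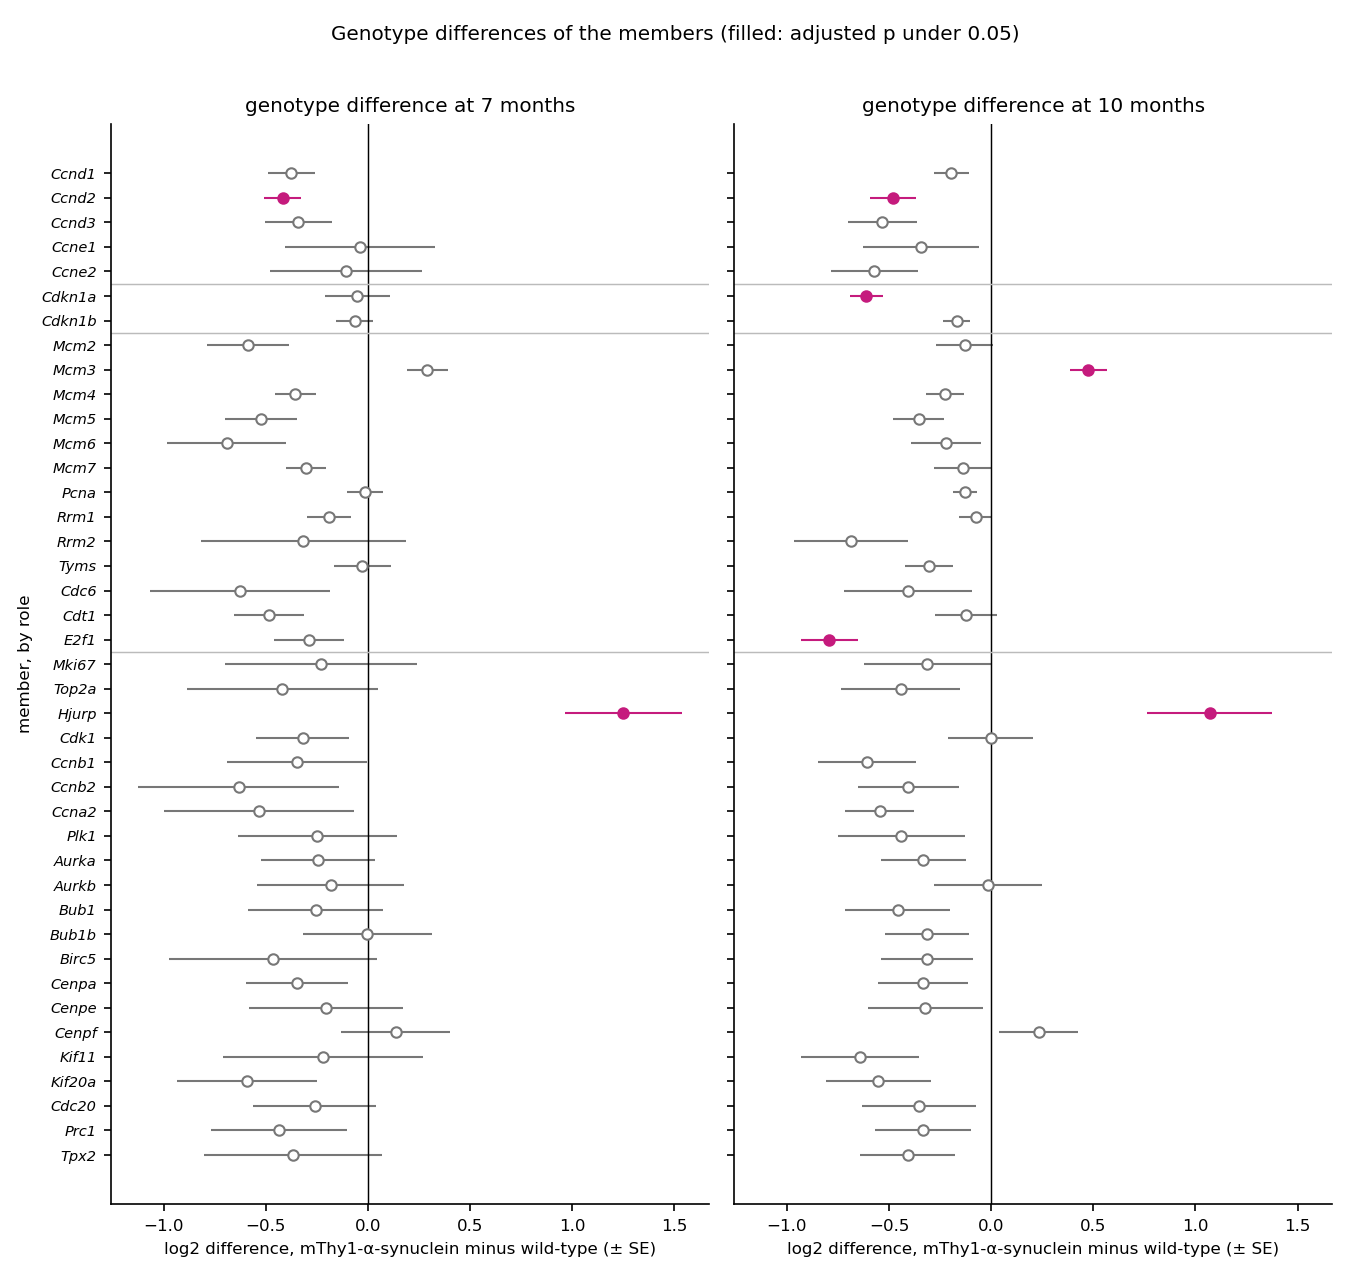
Log2 difference of mThy1-α-synuclein from wild-type control mice (x axis, bars are standard errors) for the 41 members (y axis, by role) at 7 and 10 months, filled where the adjusted p is under 0.05. Of 41 members 38 lie left of 0 at both ages, and Hjurp lies farthest to the right at both.

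Among the G1 cyclins all 5 differences were negative at both ages, from -0.42 to -0.04 at 7 months and from -0.57 to -0.20 at 10 months. Ccnd2 at 7 months ranged from 897 to 1159 normalised reads in mThy1-α-synuclein mice (median 1004) and was 1378, 1302, 1235 and 1462 in wild-type mice, without overlap. Of all genes tested 7.53% did not overlap. The log2 difference was -0.42 with a standard error of 0.09 (limma adjusted p = 0.0148). At 10 months Ccnd2 had 1298, 1460, 1209, 1114 and 1070 in mThy1-α-synuclein and 2029, 1932, 1384, 1625 and 1634 in wild-type mice, with a difference of -0.48 ± 0.11 (SE, limma adjusted p = 0.0208). The highest mThy1-α-synuclein mouse was above the lowest wild-type mouse.

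The Ccnd2 call at 7 months was lost without wild-type mouse 1 (limma adjusted p = 0.061) or 4 (0.0506), and at 10 months without mThy1-α-synuclein mouse 5 (0.0534) or wild-type mouse 1 (0.0509) or 2 (0.0585). Ccnd1, the most abundant cyclin, lay between 9913 and 14899 in mThy1-α-synuclein mice at 7 months (median 12288) and had 16769, 15219, 17636 and 13932 in wild-type mice. At 10 months it had 12987, 15739, 12469, 11553 and 11151 against 15888, 14465, 14425, 13956 and 14016. The groups overlapped at both ages, and neither difference passed by limma (-0.38 ± 0.12, limma adjusted p = 0.0782, and -0.20 ± 0.09, limma adjusted p = 0.18) or by edgeR. At 7 months DESeq2 called Ccnd1 (adjusted p = 0.0307), as did limma with the neutrophil covariate (adjusted p = 0.0177) and without mThy1-α-synuclein mouse 6 (adjusted p = 0.0389). At 10 months limma called it without mThy1-α-synuclein mouse 2 (adjusted p = 0.0391), and DESeq2 did not.

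Of the CDK inhibitors, Cdkn1a, which encodes p21, was lower at 10 months. The mThy1-α-synuclein mice had 926, 843, 971, 929 and 899 normalised reads and the wild-type mice 1552, 1340, 1258, 1349 and 1491. The groups did not overlap (7.27% of all genes tested did not), the difference was -0.61 with a standard error of 0.08 (limma adjusted p = 0.000903), and leaving out any mouse kept the call (highest adjusted p = 0.00358). At 7 months Cdkn1a lay between 763 and 1577 in mThy1-α-synuclein mice (median 1065) and had 1036, 1206, 1259 and 1082 in wild-type mice, with a difference of -0.05 ± 0.16 (SE, limma adjusted p = 0.884). Cdkn1b had between 3354 and 4521 (median 3763) against 3725, 3997, 3724 and 4481 at 7 months, and 3075, 3068, 3144, 3255 and 3291 against 3760, 3235, 3455, 3555 and 3823 at 10 months. Its groups overlapped, and it did not pass at either age (limma adjusted p = 0.719 and 0.124).

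Of the 13 DNA replication members 12 had a negative difference at each age. E2f1, the factor that switches on S phase genes, was lower at 10 months, where mThy1-α-synuclein mice had 206, 185, 218, 229 and 179 normalised reads and wild-type mice 270, 362, 406, 376 and 357. The groups did not overlap, and the difference was -0.79 ± 0.14 (SE, limma adjusted p = 0.00548). At 7 months it lay between 173 and 303 (median 262) against 245, 337, 338 and 295, with overlap and a difference of -0.29 ± 0.17 (SE, limma adjusted p = 0.349). With the neutrophil covariate the 10-month difference was -0.71 and no longer called (limma adjusted p = 0.0785), in a fit that called 197 genes against 1045 without it.

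Mcm3 went the opposite way to the other subunits of the MCM2-7 helicase, which act as 1 ring. At 10 months mThy1-α-synuclein mice had 3242, 3281, 3255, 2805 and 2543 normalised reads and wild-type mice 2267, 2118, 2517, 2075 and 1886. The groups did not overlap, the difference was 0.48 ± 0.09 (SE, limma adjusted p = 0.00877) and leaving out any mouse kept the call (highest adjusted p = 0.0284). With the neutrophil covariate the difference was still 0.48 but not called (limma adjusted p = 0.0847), in a fit where calls over all genes fell from 1045 to 197. At 7 months Mcm3 lay between 2638 and 3757 (median 3401) against 2827, 2756, 2959 and 2345, with overlap and a difference of 0.29 ± 0.10 (SE, limma adjusted p = 0.101). At that age limma called Mcm3 with the neutrophil covariate (adjusted p = 0.0425) and without mThy1-α-synuclein mouse 1 (adjusted p = 0.0272). Neither edgeR (adjusted p = 0.0922) nor DESeq2 (adjusted p = 0.0614) called it there.

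The other 5 subunits had negative differences, none of which passed by limma or edgeR, while DESeq2 called Mcm2 (adjusted p = 0.0344) and Mcm4 (adjusted p = 0.0245) at 7 months, and limma with the neutrophil covariate called Mcm4 and Mcm5 at that age. At 7 months they were -0.59 for Mcm2, -0.36 for Mcm4, -0.52 for Mcm5, -0.69 for Mcm6 and -0.31 for Mcm7, and at 10 months -0.13, -0.23, -0.36, -0.22 and -0.14. Mcm2 and Mcm4 did not overlap between the genotypes at 7 months. Over all roles 4 of 41 members did not overlap at each age, near the share of all genes tested (7.53% at 7 months and 7.27% at 10 months). Pcna, the most abundant replication member, had between 5348 and 7428 (median 6083) against 6601, 5809, 6718 and 5866 at 7 months, and 5453, 5498, 5202, 5718 and 5052 against 5675, 5730, 5963, 5798 and 6248 at 10 months. It did not pass at either age (-0.01, limma adjusted p = 0.947, and -0.13, limma adjusted p = 0.206).

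Among the mitotic members Hjurp was the only one called by limma at either age, and it was higher. At 7 months mThy1-α-synuclein mice lay between 115 and 168 normalised reads (median 153) and wild-type mice had 77.3, 112, 41.3 and 39.4. At 10 months they had 157, 90.1, 115, 100 and 85.3 against 28.6, 74.6, 82.9, 52.4 and 34.6. The groups did not overlap at either age. The difference was 1.25 ± 0.29 (SE, limma adjusted p = 0.0203) at 7 months and 1.07 ± 0.31 (SE, limma adjusted p = 0.0473) at 10 months. The call at 7 months was lost without wild-type mouse 3 (limma adjusted p = 0.0739) or 4 (0.0601). That at 10 months was lost when any mouse but wild-type mouse 3 was left out (highest adjusted p = 0.119), and also with edgeR (adjusted p = 0.059), without the filter on low values (limma adjusted p = 0.0612) and with the neutrophil covariate (limma adjusted p = 0.0872), while DESeq2 kept it (adjusted p = 0.0172).

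The difference was negative in 19 of 21 mitotic members at each age, but the spread between mice was wide. At 7 months the 21 differences lay between -0.63 (Ccnb2, a mitotic cyclin) and 1.25 (Hjurp), with Mki67 at -0.23 ± 0.47 (SE, limma adjusted p = 0.819), Top2a at -0.42 ± 0.47 (limma adjusted p = 0.652) and Cdk1 at -0.32 ± 0.23 (limma adjusted p = 0.449). At 10 months they were -0.31 ± 0.31 (limma adjusted p = 0.599), -0.44 ± 0.29 (0.407) and 0.00 ± 0.21 (0.996). A difference of the size of that of Cdkn1a at 10 months (-0.61) is smaller than 2 standard errors of Mki67 at 7 months. With the neutrophil covariate the 10-month difference of Mki67 was 0.39 and that of Top2a 0.19, neither of which passed.

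No member passed the test of whether the genotype difference changed between the ages, where 6.36% of 14457 genes were called. By limma 0 of 41 were called and 2 had an unadjusted p under 0.05, as did 21.9% of all genes tested. These 2 were Cdkn1a (-0.56 ± 0.18, limma adjusted p = 0.066) and E2f1 (-0.50 ± 0.22, limma adjusted p = 0.17). DESeq2 called 1 (Cdkn1a, adjusted p = 0.0303) and edgeR 0. Without mThy1-α-synuclein mouse 1 of 7 months limma called Cdkn1a (adjusted p = 0.0139).

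Between the ages, with all 20 mice on a common scale, limma called 1 of 41 members in wild-type mice, where 9.97% of 14452 genes were called. Ccnd2 was higher at 10 than at 7 months (0.45 ± 0.11, adjusted p = 0.0105). In mThy1-α-synuclein mice 0 of 41 were called, where 0.906% of genes were called. An unadjusted p under 0.05 was found for 2 members, and for 12.7% of all genes tested. Of these 2 members Ccnd2 had a difference of 0.39 ± 0.10 (limma adjusted p = 0.0517), while edgeR called it. Mki67 and Top2a did not pass in either genotype. Age and the processing of the mice cannot be told apart here.

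In the rest of the pathway, 50 other mitotic genes were counted. At 7 months 0 were called by limma, against 4.93% of all genes tested, and 0 had an unadjusted p under 0.05, against 21.3%. Both edgeR and DESeq2 called 0, and 40 of 50 were negative (median -0.29), as were 49.8% of all genes tested. At 10 months limma and edgeR called 1 and DESeq2 3, when limma called 7.67% and DESeq2 1694 of all 13627 genes tested. Among them was Cks2, which binds CDKs and was lower (-0.59 ± 0.14, limma adjusted p = 0.0214). Of the 50 genes 46 were negative at that age (median -0.28), as were 50.5% of all genes tested. How far these 50 genes move together was not measured, and their signs are not taken as separate observations. Of 42 other replication genes 0 were called at 7 months (limma, 6 with an unadjusted p under 0.05, edgeR called 0 and DESeq2 1, Gins2) and 1 at 10 months by all 3 tools, Gmnn, the inhibitor of origin licensing, which was lower (-0.50 ± 0.13, limma adjusted p = 0.0285).

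Of 30 CDK and RB regulators limma and edgeR called 1 and DESeq2 2 at each age, when limma called 4.93% of all genes tested at 7 months and 7.67% at 10 months. Myc, a growth factor-induced transcription factor, was higher at 7 months (0.89 ± 0.12, limma adjusted p = 0.00183), at 1074 ± 95.7 (SD, n = 6) against 586 ± 120 (SD, n = 4) normalised reads, and had a difference of -0.07 ± 0.22 at 10 months (limma adjusted p = 0.89). Its interaction passed (-0.96 ± 0.26, limma adjusted p = 0.029). Cdkn2d, an inhibitor of CDK4 and CDK6, was lower at 10 months (-0.82 ± 0.22, limma adjusted p = 0.0439).

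Cdkn1a is a target of p53, and of 14 other p53 targets tested limma, edgeR and DESeq2 each called 5 at 10 months, where limma called 7.67% of all genes tested and the median of the list was -0.03. Aen, Gadd45a, Fas and Plk2 were lower and Zmat3 was higher. Gadd45a, a stress-induced gene, stood at 331 ± 91.7 against 881 ± 285 normalised reads (SD, n = 5 each) and differed by -1.38 ± 0.28 (limma adjusted p = 0.0179). Zmat3 differed by 0.55 ± 0.12 (limma adjusted p = 0.0178). At 7 months 0 were called (limma, 1 with an unadjusted p under 0.05, edgeR called 0 and DESeq2 1, Zmat3). Of 10 immediate-early genes, which respond within minutes to cell handling as well as to growth signals, limma and edgeR called 1 at 10 months, Fosb (-0.67 ± 0.18, limma adjusted p = 0.0474). DESeq2 called 4 (Dusp1, Fos, Fosb and Nr4a1), when it called 1694 of all 13627 genes tested. Of the 10 genes 8 were negative, as were 50.5% of all genes tested. At 7 months 0 were called (limma, 2 with an unadjusted p under 0.05, edgeR and DESeq2 called 0).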

How the data were processed

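RNA of microglia from 20 male mice was analysed. Per the labels and the study's methods, the authors trimmed reads with Trim Galore 0.6.7, mapped them to mm10 with HISAT2 2.2.1, counted them per gene with featureCounts and used DESeq2 1.44.0. The signal values as deposited are counts per gene over a size factor of each mouse, which the authors set separately for each age. Annotation release, strand and the handling of shared reads are not given in the sources used here. Files of single mice repeated the table and were not used.

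Whole reads were recovered from 100% of values (within 0.05). In mThy1-α-synuclein mouse 5 at 10 months the factor was so near 1 (0.997) that whole multiples were not taken as a check. The size factor of that mouse recomputed within its age was also 0.997. edgeR on these reads called 695 genes at 7 and 1080 at 10 months. Depth was 33404096 to 77806399 reads per mouse. Mice of a group differed by a chi-square of at least 24.7 per gene, far above counting noise, so errors are SDs or standard errors between mice.

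Values were compared within each age by limma 3.58.1 (trend, robust) on log2(value + 1), for genes reaching 10 in 4 or more mice (7 months) or in 5 or more (10 months), with Benjamini-Hochberg adjustment over all genes and a threshold of 0.05. Fold changes are on that scale and understate changes of low genes. The interaction used 1 fit of 4 groups, and the ages were compared on recovered reads scaled over all mice. Coherence was measured on deviations from group means, and relations with Mki67 by 100000 permutations within groups. Alternatives were pseudocounts 0.5 and 5, no filter, edgeR 4.0.16, DESeq2 1.42.0, the replicate number as a block, other scalings, leaving out each mouse and a neutrophil covariate. Positions are from GENCODE on mm10. R 4.3.3, Python 3.11.15, numpy 2.4.6, pandas 2.3.3, scipy 1.17.1 and matplotlib 3.10.9 were used. The genotype tests within each age were checked on simulated data. There all genes had the same spread setting and varied independently, so the check does not cover genes that vary together, such as the mitotic members.

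Members and lists were chosen with earlier results of these data known. Full values are given for Mki67, Top2a, Hjurp, Cdk1, every member called at either age or in the interaction and the member with the highest mean in each role, and of other lists for up to 5 called genes with the smallest p. 3 older symbols were matched. Marker lists beside Mki67 and the neutrophil covariate were added after the data were seen.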

Additional observations from a re-analysis of the deposited data

Results flagged for a closer look

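In each group every member was checked for a mouse far from the others, 164 checks in all, of which chance alone flags about 1 in 20. There were 3 such values. Ccnd1 had 15888 normalised reads in wild-type mouse 1 at 10 months, where the other mice of the group had 13956 to 14465. Mcm2 had 430 in mThy1-α-synuclein mouse 1 at 7 months, where the others had 805 to 1001. Rrm1 had 2713 in wild-type mouse 3 at 10 months, where the others had 2212 to 2288. mThy1-α-synuclein mouse 1 at 7 months also had the lowest and wild-type mouse 3 the highest mitotic mean of their groups.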

How the results depend on the processing

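The counts of members called depended on the test and on single mice. At 7 months limma called 2 of 41, with a median of -0.31 that was -0.48 with the block. DESeq2 called 5, the replicate block 0, the neutrophil covariate 6, and leaving out each mouse gave 0 to 5. At 10 months limma called 5, DESeq2 8 (also Ccna2, Ccnd3 and Rrm2, each lower), the neutrophil covariate 2, and leaving out each mouse 3 to 6. In the interaction limma called 0, DESeq2 1, and leaving out each mouse gave 0 to 1. Between the ages, the deposited values, scaled within each age, gave 3 calls in wild-type mice in place of 1 and 1 in mThy1-α-synuclein mice in place of 0, where edgeR also called 1 and leaving out each mouse gave 0 to 1. The median difference of the members at 10 months turned from -0.33 to 0.047 with the neutrophil covariate. The cause was not tested in any of these. Over all genes, DESeq2 called 1158, the covariate 900 and the block 414 where limma called 684 at 7 months. At 10 months DESeq2 called 1694 and the covariate 197 where limma called 1045. In the interaction the block called 482 against 920.

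The labels do not say that equal mouse numbers belong together. Same-numbered mice of an age correlated at -0.127 to 0.0461, and in no such pair was each mouse the best match of the other. With the block at 10 months Hjurp was lost and Ccnd3 gained, and the count stayed at 5.

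Coherence of the mitotic members was 0.858, 0.83 to 0.868 when each mouse was left out, and 0.588 with the neutrophil covariate. The relation of Mki67 with Ccnd3 was 0.545 without the 2 mice farthest from the median. Spearman correlation, a pseudocount of 5, CPM with TMM and a minimum mean of 100 moved the coherence of no role beyond its spread. With 4 to 6 mice a group, the spread between mice limits what could be called among mitotic members. Ccna2 at 10 months (-0.55 ± 0.17, SE) did not pass by limma (adjusted p = 0.0635) or edgeR (adjusted p = 0.0592), while DESeq2 called it lower (adjusted p = 0.0201). Without mThy1-α-synuclein mouse 1 or wild-type mouse 4 of that age limma called it too.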
